A study of Mus musculus with 12 samples.

Results

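Lysosome and V-ATPase genes were measured in mouse fetal liver alveolar-like macrophages (FLAMs), a macrophage culture derived from fetal liver. The set holds 48 genes, picked by symbol from the 40847 gene rows of the count table, and all 48 symbols were found there. By role it comprises 12 genes for cathepsins and legumain, 9 for lysosomal membrane proteins, 8 for sugar and glycan hydrolases, 8 for lipid hydrolases, their cofactors and other lumenal proteins, 3 for MiT/TFE transcription factors and 8 for subunits of the vacuolar proton pump (V-ATPase). The choice went by gene symbol and applied no cut on level or fold change, but earlier results of these data were known when it was made. A filter on low counts left 14749 genes for testing, 47 of the 48 among them; Ctse, which encodes the aspartic protease cathepsin E, held 3 to 12 counts per library and was not tested.

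The series comprises 12 RNA-seq libraries in 4 groups of 3, and every group was grown with recombinant mouse GM-CSF at 30 ng/ml. Untreated cells received nothing further, and TGFβ cells were cultured with recombinant human TGFβ1 at 20 ng/ml. Pam3 cells received the TLR2 ligand Pam3CSK4 at 25 ng/ml for 18 h, and Pam3+TGFβ cells had both agents. How long TGFβ had been present, and whether libraries of a group came from separate cultures, is not given in the sources used here, so p-values measure the spread between these libraries, which may be technical. By its title, the study concerns how TGFβ prepares these cells for a response to TLR2 activation.

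Levels are CPM, counts scaled to a common library total, with library sizes adjusted by the trimmed mean of M values (TMM), as mean ± SD of 3 libraries unless each library is given. A gene is called where the Benjamini-Hochberg adjusted p of edgeR's quasi-likelihood test, over all 14749 genes, is under 0.05, and an SE belongs to a log2 fold change. "Rose" and "fell" are used of called genes only. Total counts ran from 34036650 to 44374115 per library. Groups separated on the first 2 principal components, which held 59% and 26.8% of the variance, but untreated library 3, TGFβ library 2 and Pam3 library 1 differed from the rest of their groups mainly in LOC118568312, a row that ranged from 569 to 39370 CPM.

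The macrophage label was checked against marker genes. Lyz2, Csf1r, Adgre1, Ptprc, Mertk and Fcgr1 had group means of 81.1 CPM or more in each group, while lists for 8 other cell types summed to between 0 and 25.1 CPM per library. A list of 8 osteoclast markers summed to more, with Acp5 as its highest gene. That list held 319.3 to 360.5 CPM in untreated, 442.9 to 465.8 in TGFβ, 358.7 to 377.1 in Pam3 and 626.7 to 653.7 in Pam3+TGFβ libraries. Of the 6 hepatocyte markers, Ttr and Fgb had no count in any library and Afp had group means of 5.77 to 9.27 CPM. Of the 6 fibroblast and stellate markers, Col1a2 had none and Pdgfra reached a group mean of 1.02 CPM. With TGFβ, the macrophage list itself moved: its summed level was 31630 to 35680 CPM in untreated, 16530 to 17490 in TGFβ, 34660 to 35810 in Pam3 and 25660 to 26260 in Pam3+TGFβ libraries. Lyz2 alone held most of that sum, with means of 29820 CPM in untreated, 15250 in TGFβ, 31010 in Pam3 and 23250 in Pam3+TGFβ libraries. Of the 7 genes on the macrophage list, 5 fell and 1 rose with TGFβ in the absence of Pam3, and 4 fell and 2 rose in its presence. Itgam went from 1088 to 38.8 CPM, and the alveolar macrophage gene Siglecf from 32.1 to 300.4 CPM. Of 8 alveolar macrophage genes, 5 rose and 3 fell with TGFβ in both settings, Fabp4 going from 31.1 to 0.132 CPM in the absence of Pam3. Several genes of the low lists fell with TGFβ too: without Pam3, the neutrophil gene S100a8 went from 13.8 to 3.06 CPM, the megakaryocyte genes Ppbp from 6.03 to 0.0494 and Pf4 from 1.52 to 0.247, the dendritic cell gene Zbtb46 from 4.64 to 1.42 and the endothelial gene Cdh5 from 0.888 to 0.0514. Others rose in that setting, among them the endothelial gene Pecam1, from 0.895 to 2.46 CPM, and the dendritic cell gene Clec9a, from 16.74 to 20.45. The neutrophil genes S100a9 and Camp rose as well, from 0.25 to 0.99 and from 0.008 to 0.174 CPM. Of the tested neutrophil genes 2 rose and 1 fell, and of the tested dendritic cell genes 1 rose and 1 fell. Beside Pam3, Clec9a fell with TGFβ. Afp rose with TGFβ beside Pam3 and with Pam3 beside TGFβ. In bulk RNA, fewer cells of a type and less RNA per cell cannot be told apart, and the part of these shifts in the lysosomal results was not tested.

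Lysosomes are the acidic compartments in which a cell digests proteins, glycans and lipids delivered by endocytosis, phagocytosis and autophagy. The V-ATPase pumps protons across the lysosomal membrane and so provides the low pH that cathepsins and other acid hydrolases need. TFEB, TFE3 and MITF, the MiT/TFE factors, bind E-box sequences near the start sites of many lysosomal genes and raise their transcription when the kinase mTORC1 is inactive. In alveolar macrophages, lysosomes degrade inhaled particles and microbes and take part in the turnover of surfactant lipid.

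Promoter sequence was compared because most members moved together with TGFβ, and because MiT/TFE factors are known to bind the E-box CACGTG, often within TCACGTGA. RefSeq windows from 250 bases before to 50 after the start site were at hand for 39 of the 48 genes (48 windows, build GRCm38.p6). Both strands were searched, and the longer of these motifs contains the shorter. The core CACGTG was in a window of 14 of the 39 genes (35.9%), against 8.09% of all 27025 genes with a window. TCACGTGA was found in 7 members (18.0%), namely Atp6v0d1, Atp6v1a, Cln3, Ctsa, Ctsd, Gla and Mcoln1, against 1.12% of all genes. A palindrome that extends TCACGTGA by 1 base on each side, printed in the Cln3 sequence, was in that window only among members, and in 0.37% of all genes. Among the 33 members with a window that fell with TGFβ in the absence of Pam3, 12 held CACGTG (36.4%), and among the 6 that did not fall 2 did (33.3%). TCACGTGA was in 6 (18.2%) and 1 (16.7%) of these. CATGTG, a related E-box, was in 10 members (25.6%) and 15.9% of all genes, and TCATGTG, added after the data were seen, in 7 members (18.0%) and 4.31% of all genes. Of the members that fell 8 held CATGTG (24.2%) and 5 TCATGTG (15.2%), and of those that did not fall 2 held each (33.3%). The 85 other lysosomal genes with a window held CACGTG in 25.9%, TCACGTGA in 10.6%, the longer palindrome in 1.18%, and CATGTG and TCATGTG in 9.41% each. A match describes letters in a window and not a bound site.

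The 250 bases upstream of the start site are printed 5′ to 3′ on the gene's strand for 5 members, with matches of either E-box in capitals (CACGTG with its palindromic flanks, and TCATGTG). Ctsd is shown as the member with the highest level per kilobase, Cln3 for the longer palindrome, Gla for its repeated matches, Mcoln1 as a gene that holds matches but was not called with TGFβ, and Gpnmb as the gene that fell most. Their positions in GRCm38.p6 are chr7:142387828-142388077 (minus strand), chr7:126583237-126583486 (minus strand), chrX:134601006-134601255 (minus strand), chr8:3500269-3500518 (plus strand) and chr6:49036268-49036517 (plus strand).
Ctsd: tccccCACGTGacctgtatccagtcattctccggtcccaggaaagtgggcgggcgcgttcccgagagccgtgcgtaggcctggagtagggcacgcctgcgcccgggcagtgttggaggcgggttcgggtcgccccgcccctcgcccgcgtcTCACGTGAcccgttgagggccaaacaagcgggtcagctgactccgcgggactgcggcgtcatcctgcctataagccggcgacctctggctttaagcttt
Cln3: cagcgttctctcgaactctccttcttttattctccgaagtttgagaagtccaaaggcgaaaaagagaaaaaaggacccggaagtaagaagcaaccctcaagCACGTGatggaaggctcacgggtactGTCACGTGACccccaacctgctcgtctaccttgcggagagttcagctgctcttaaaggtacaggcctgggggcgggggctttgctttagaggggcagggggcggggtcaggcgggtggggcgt
Gla: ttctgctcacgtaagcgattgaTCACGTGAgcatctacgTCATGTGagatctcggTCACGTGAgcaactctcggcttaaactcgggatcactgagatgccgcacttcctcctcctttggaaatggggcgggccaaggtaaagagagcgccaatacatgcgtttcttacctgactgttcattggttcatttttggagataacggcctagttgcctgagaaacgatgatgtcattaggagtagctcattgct
Mcoln1: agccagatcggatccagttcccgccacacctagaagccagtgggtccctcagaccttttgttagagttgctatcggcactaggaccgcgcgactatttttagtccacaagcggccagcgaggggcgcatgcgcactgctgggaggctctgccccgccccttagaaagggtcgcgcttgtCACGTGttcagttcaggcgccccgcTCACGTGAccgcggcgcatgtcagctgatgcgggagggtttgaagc
Gpnmb: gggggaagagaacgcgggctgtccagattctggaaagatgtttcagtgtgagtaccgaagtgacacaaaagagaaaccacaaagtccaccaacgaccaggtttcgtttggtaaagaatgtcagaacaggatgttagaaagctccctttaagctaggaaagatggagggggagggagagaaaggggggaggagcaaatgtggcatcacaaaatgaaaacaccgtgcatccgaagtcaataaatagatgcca
The Gpnmb stretch holds none of these letters in either orientation.

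TGFβ lowered most of the set. In the absence of Pam3, 40 of the 47 tested members fell and 3 rose, where 28.1% of all tested genes fell, 22.9% rose and 51.0% were called in either direction. Their median log2 fold change was -0.58, beside -0.01 over all genes, and the range ran from -3.86 for Gpnmb to 1.04 for Ppt1. Among the 7555 genes at or above the level of the least abundant tested member, a floor chosen after the data were seen, 35.6% fell. The 2 groups did not overlap for 46 of the 47 members, which held for 56.4% of all genes. The 4 members not called were Ctsf, Mcoln1, Gusb and Man2b1. By this comparison 7 members fell by at least 1 on the log2 scale, namely Gpnmb, Lgmn, Ctsk, Psap, Ctsl, Ctsb and Atp6v1b2. Ppt1 rose by as much. A change of that size was called for 13.5% of all genes and 7.32% of the 7555 genes at the members' level.

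Cells given Pam3 showed a similar division. With TGFβ on top of Pam3, 35 of 47 members fell and 3 rose, beside 23.8% lower, 21.5% higher and 45.3% called of all genes, and 27.9% lower among the 7555 genes at that level. The member median was -0.42 against 0.00 for all genes, and the groups did not overlap for 41 of 47 members (55.1% of all genes). A fall of at least 1 was seen for 6 members, with 11.9% of all genes called at that size and 6.51% of the 7555 genes. These 2 comparisons share no library, but all 12 libraries share 1 estimate of the spread. The 35 members that fell in the presence of Pam3 make up 87.5% of the 40 that fell in its absence, and all 35 are among those 40. The same overlap was not counted over all tested genes. Cln3, Mitf, Neu1, Npc2 and Tfe3 fell in the absence of Pam3 only. The difference between the 2 TGFβ effects passed its own test for Tfe3 and Neu1 (the latter call lost in some alternatives) but not for Cln3, Mitf or Npc2. The same 3 genes, Ppt1, Scarb2 and Asah1, rose in both. By group means, both groups with TGFβ were the lowest for 37 members, with no overlap with the other groups for 35 of them, and the highest for 3. This order was not counted over all tested genes, so these counts have no share to stand beside.

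**Figure D1:**
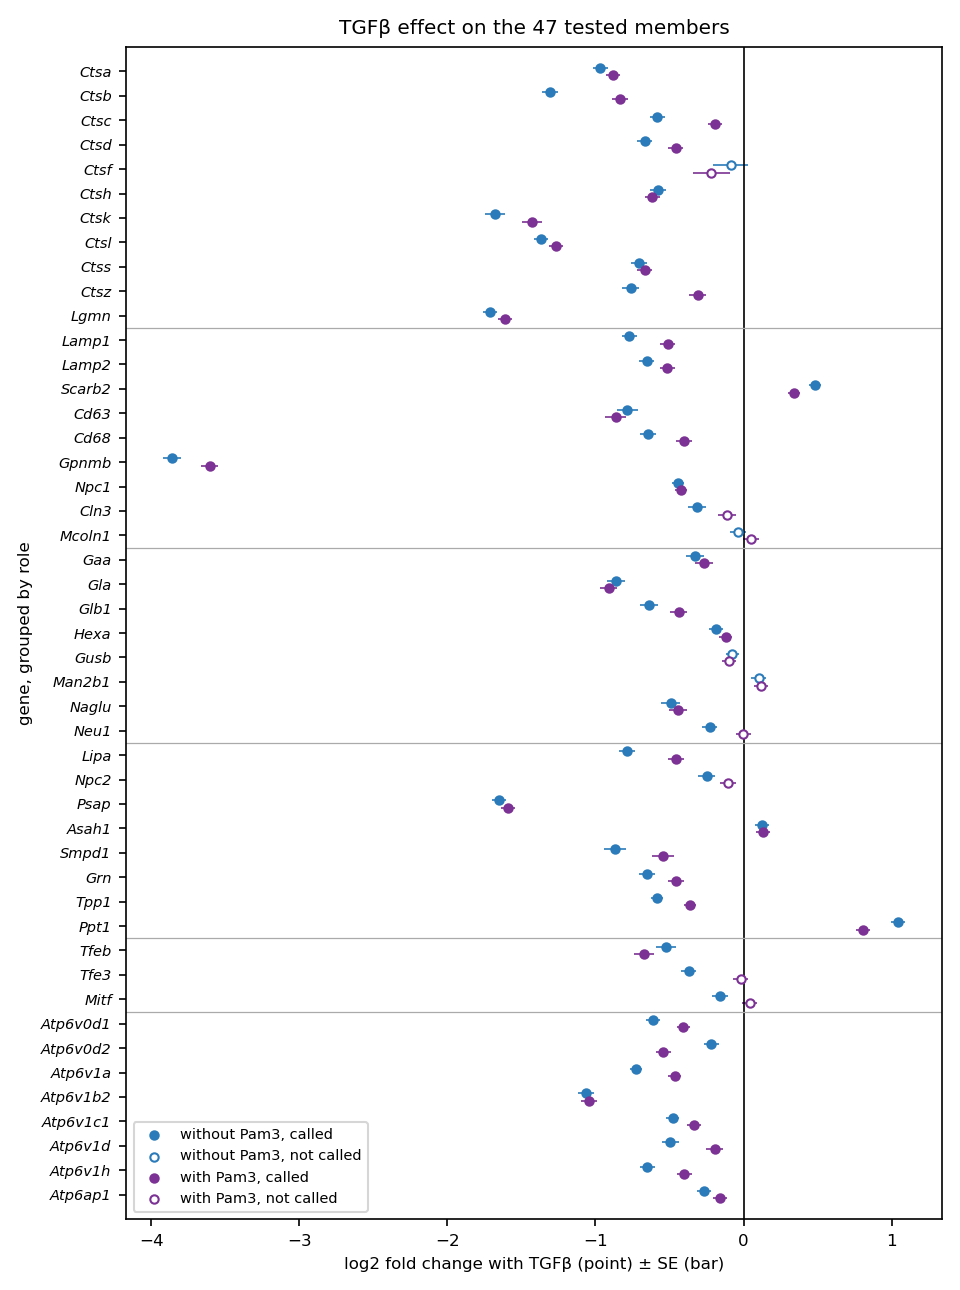
Log2 fold change (points) and SE (bars) of the 47 tested members with TGFβ, in the absence (blue) and presence (purple) of Pam3, grouped by role; filled points passed an adjusted p of 0.05. Most points lie left of 0, Gpnmb lies at -3.86 and -3.61, and Ppt1, Scarb2 and Asah1 lie to the right.

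Proteases were described first. Cathepsins are lumenal proteases, and legumain is an asparaginyl endopeptidase that also processes cathepsins. All but 1 of the 11 tested protease genes fell with TGFβ in either setting, with medians of -0.76 and -0.67. Lgmn (chr12:102359122-102414682, minus strand in GRCm39) was at 295, 292 and 306 CPM in the untreated libraries and 93.9, 91.4 and 87.0 with TGFβ. It was at 243, 234 and 231 CPM with Pam3 and 73.6, 81.7 and 76.8 with both agents. Libraries with TGFβ were far below the rest, and Pam3 libraries lay below untreated ones. The fall with TGFβ was 3.28-fold in the absence of Pam3 (log2 -1.71, SE 0.048, edgeR adjusted p = 4.66e-20) and 3.06-fold in its presence (log2 -1.61, SE 0.048, edgeR adjusted p = 2.14e-19).

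Ctsk encodes cathepsin K, the collagen-degrading protease best known from osteoclasts, and lies at chr3:95406178-95416732, plus strand. Its level was 57.3, 63.0 and 63.5 CPM in untreated and 19.7, 20.0 and 17.7 in TGFβ libraries. With Pam3 it was 62.5, 61.2 and 67.8 CPM, and with both agents 24.2, 23.4 and 23.4. Neither pair of groups that differs by TGFβ overlapped, while untreated and Pam3 libraries did. TGFβ lowered it 3.20-fold (SE 0.068 on a log2 change of -1.68, edgeR adjusted p = 1.07e-16) and, beside Pam3, 2.69-fold (log2 -1.43, SE 0.067). Its neighbour on chromosome 3, Ctss, which encodes cathepsin S of antigen processing and lies at chr3:95433963-95463717, plus strand, fell by 0.71 and 0.67 on the log2 scale. Of the 6 osteoclast markers tested, 4 fell and 2 rose with TGFβ in the absence of Pam3, Dcstamp going from 34.6 to 0.304 CPM and Acp5 from 210.5 to 356, while Calcr was near 0 in each group.

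Ctsb, which encodes the cysteine protease cathepsin B, was at 2742, 3085 and 2868 CPM in untreated and 1200, 1168 and 1138 in TGFβ libraries. Pam3 libraries held 2863, 2780 and 2750 CPM and Pam3+TGFβ libraries 1577, 1590 and 1546. Both groups with TGFβ were low, those with Pam3 less so, and no library of one overlapped the other. The TGFβ effect was -1.31 (SE 0.054) in the absence and -0.83 (SE 0.054) in the presence of Pam3. Ctsl, another broad cysteine protease, fell by 1.37 and 1.27.

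Ctsc encodes dipeptidyl peptidase I, which activates granule serine proteases. It was at 2752, 2650 and 2711 CPM in untreated and 1798, 1826 and 1796 in TGFβ libraries. With Pam3 it was 2660, 2661 and 2524 CPM and with both agents 2278, 2285 and 2296. The 3 libraries with both agents fell between those with TGFβ alone and the 6 without TGFβ. Its TGFβ effects were -0.58 (SE 0.050) and -0.19 (SE 0.049).

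Ctsz, which encodes the carboxypeptidase cathepsin Z, held 1086, 1268 and 1103 CPM in untreated and 698, 684 and 658 in TGFβ libraries. It held 1297, 1242 and 1311 CPM with Pam3 and 1045, 1058 and 1002 with both. TGFβ libraries were lowest, and those with both agents lay just below the untreated range. Its TGFβ effects were -0.76 (SE 0.058) and -0.31 (SE 0.057).

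The exception among the proteases was Ctsf, which encodes cathepsin F and was the least abundant tested member. It was at 19.2, 22.8 and 18.1 CPM in untreated and 19.8, 17.7 and 19.1 in TGFβ libraries. Pam3 libraries held 19.0, 14.6 and 13.5 CPM and Pam3+TGFβ libraries 13.1, 11.9 and 15.6. Libraries with and without TGFβ overlapped in both settings, and neither TGFβ effect was called (log2 -0.09, edgeR adjusted p = 0.575, and log2 -0.22, edgeR adjusted p = 0.164). The other tested proteases fell in both settings: Ctsa (carboxypeptidase cathepsin A) by 0.97 and 0.88, Ctsd (aspartic protease cathepsin D) by 0.67 and 0.46, and Ctsh (aminopeptidase cathepsin H) by 0.58 and 0.62 on the log2 scale.

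**Figure D2:**
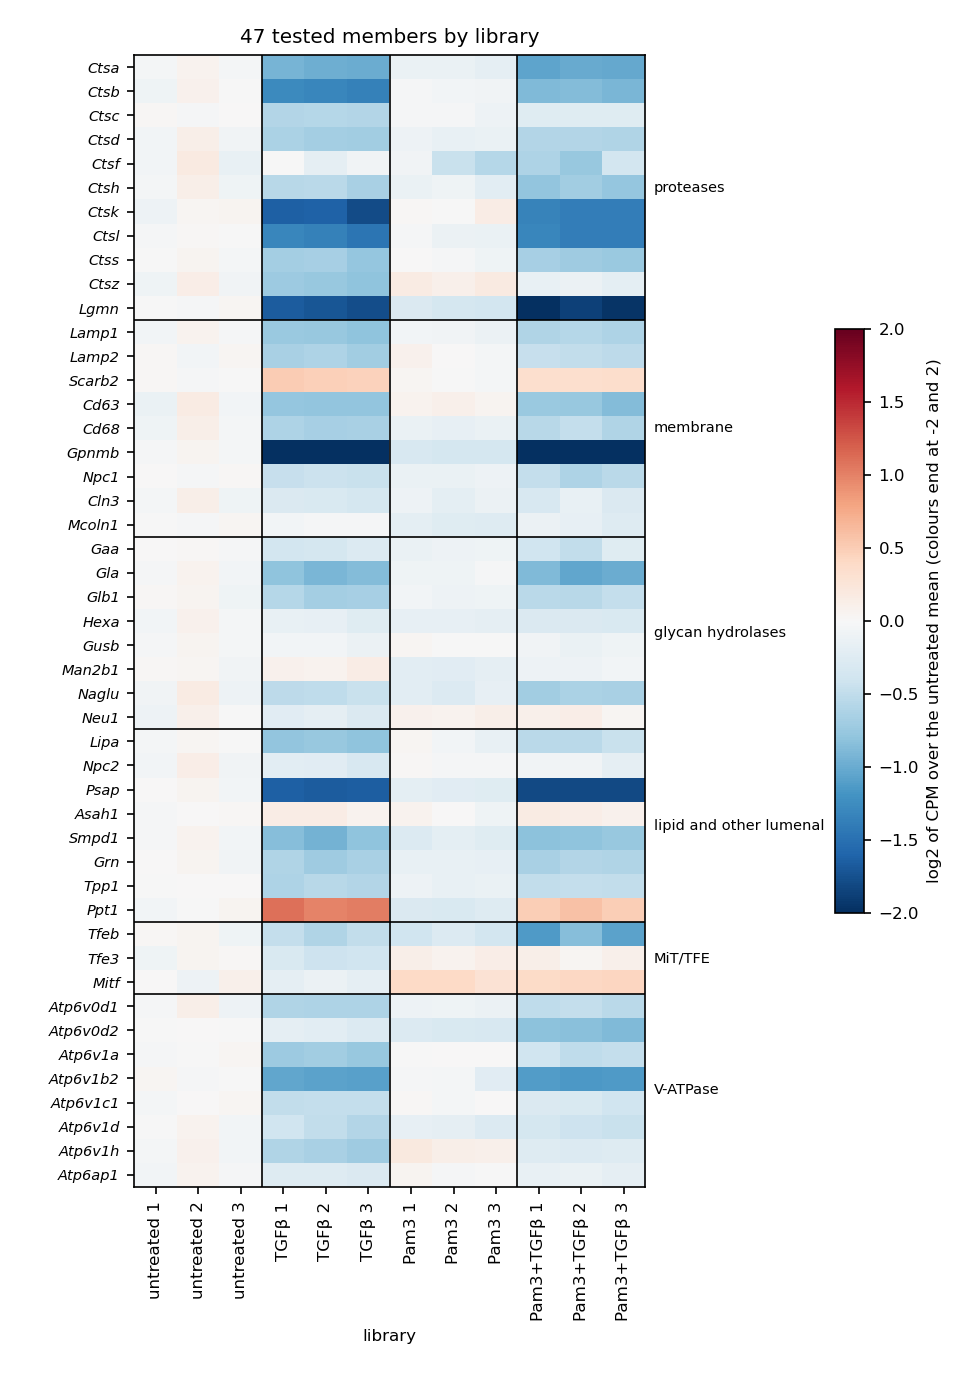
Log2 ratio of CPM to the untreated mean (colour) for the 47 tested members (vertical axis, by role) in each of the 12 libraries (horizontal axis); colours end at -2 and 2, so Gpnmb lies beyond the scale. Both blocks with TGFβ are blue for most genes, and Ppt1 and Scarb2 are red there.

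Among membrane proteins, 7 of 9 genes fell and 1 rose with TGFβ in the absence of Pam3, and 6 fell and 1 rose in its presence (medians -0.64 and -0.42). Gpnmb, a transmembrane glycoprotein of lysosomes and melanosomes known as an MITF target, lies at chr6:49013426-49047863, plus strand and changed most of the 47 members. It was at 2473, 2617 and 2446 CPM in untreated and 174, 170.0 and 175 in TGFβ libraries. Pam3 libraries held 2006, 1973 and 1959 CPM, and libraries with both agents 174, 157 and 157. Every library with TGFβ was more than an order of magnitude below every library without it. The gene fell 14.5-fold (log2 -3.86, SE 0.059, edgeR adjusted p = 8.35e-25) and 12.2-fold beside Pam3 (log2 -3.61, SE 0.058). In the ranking of genes by count, Gpnmb stood at place 24 to 31 in untreated libraries and 977 to 1031 with TGFβ.

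Scarb2 encodes LIMP-2, the membrane receptor that carries glucocerebrosidase to lysosomes, and lies at chr5:92589169-92654692, minus strand. It held 307, 299 and 303 CPM in untreated and 432, 419.7 and 418 in TGFβ libraries. It held 310.3, 302 and 295 CPM with Pam3 and 383, 381 and 387 with both agents. The 6 libraries with TGFβ were above the 6 without it. Scarb2 rose by 0.48 on the log2 scale (SE 0.041, edgeR adjusted p = 2.96e-10), and by 0.34 beside Pam3 (SE 0.041).

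Cd68, a heavily glycosylated lysosomal protein used as a macrophage marker, was at 810.4, 929 and 834 CPM in untreated and 557, 542 and 549 in TGFβ libraries. It was at 785, 766 and 786 CPM with Pam3 and 583, 618 and 567 with both agents. Groups with and without TGFβ did not overlap, and the falls were 0.64 (SE 0.054) and 0.40 (SE 0.054) on the log2 scale. The main structural glycoproteins of the membrane fell as well, Lamp1 by 0.77 and 0.51, and Lamp2 by 0.65 and 0.51. The tetraspanin gene Cd63 fell by 0.79 and 0.86, and Npc1, whose product exports cholesterol, by 0.44 and 0.42. Cln3, mutated in juvenile Batten disease, fell by 0.31 in the absence of Pam3 and was at -0.11 in its presence (edgeR adjusted p = 0.142). Mcoln1, which encodes the calcium channel TRPML1, was called in neither setting (-0.04 and 0.05).

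Sugar and glycan hydrolases changed least in size among the lumenal groups, with 6 of 8 lower in the absence of Pam3 and 5 of 8 in its presence, none called higher in the fit reported here, and medians of -0.28 and -0.19. Gla (alpha-galactosidase A) fell by 0.86 and 0.91 and Glb1 (beta-galactosidase) by 0.64 and 0.44. Naglu, which acts on heparan sulfate, fell by 0.49 and 0.44, and Gaa (acid alpha-glucosidase) by 0.33 and 0.26. Hexa, the alpha subunit of hexosaminidase, fell by 0.19 and 0.12; the latter call was lost without untreated library 3 or any library with Pam3, and with RLE scaling, no filter on low counts or 10 counts required in every library, with adjusted p up to 0.116 over these. Neu1 (sialidase) fell by 0.23 only in the absence of Pam3. Gusb (beta-glucuronidase) was at -0.08 and -0.10 and Man2b1 (alpha-mannosidase) at 0.10 and 0.12, with edgeR adjusted p between 0.0513 and 0.176. Man2b1 was close to the threshold: of 20 alternatives run, 11 in the absence of Pam3 and 10 in its presence called it higher, by 0.11 to 0.14 and 0.12 to 0.14 on the log2 scale (adjusted p 0.00964 to 0.0492 and 0.00308 to 0.048; DESeq2, limma and edgeR settings).

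The 8 genes for lipid handling and other lumenal proteins included Psap, which had the highest count of the set in untreated cells, and 2 of the 3 members that rose. TGFβ lowered 6 and raised 2 of them in the absence of Pam3, and lowered 5 and raised 2 in its presence (medians -0.62 and -0.41). Psap encodes prosaposin, the precursor of the saposins that present sphingolipids to their hydrolases, and lies at chr10:60113431-60138380, plus strand. Its level was 14790, 15310 and 14250 CPM in untreated and 4766, 4654 and 4717 in TGFβ libraries. With Pam3 it was 12850, 12690 and 12560 CPM, and with both 4234, 4231 and 4214. The groups formed 4 steps with no overlap, in the order untreated, Pam3, TGFβ and Pam3+TGFβ. TGFβ lowered Psap 3.14-fold (log2 -1.65, SE 0.047, edgeR adjusted p = 5.81e-20) and 3.01-fold beside Pam3 (log2 -1.59, SE 0.047).

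Ppt1 (palmitoyl-protein thioesterase, which removes fatty acids from proteins; chr4:122730010-122754948, plus strand) went the other way. It held 139, 143 and 149.9 CPM in untreated and 310.5, 288 and 292 in TGFβ libraries. It held 118, 117 and 121 CPM with Pam3 and 203, 217 and 202 with both agents. All 4 groups were apart, TGFβ libraries highest and Pam3 libraries lowest. The rise with TGFβ was 2.06-fold (log2 1.04, SE 0.046, edgeR adjusted p = 4.46e-16) and 1.75-fold beside Pam3 (log2 0.80, SE 0.046).

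Asah1 encodes acid ceramidase and rose slightly. It was at 429.9, 440.1 and 445 CPM in untreated and 486, 485 and 462 in TGFβ libraries. With Pam3 it was 462, 441 and 414 CPM, and with both 492, 483 and 466. In each setting the lowest library with TGFβ lay only just above the highest without it. Its changes of 0.12 (SE 0.049, edgeR adjusted p = 0.0375) and 0.13 (SE 0.049, edgeR adjusted p = 0.0314) were small. The first call was lost without untreated library 3 or TGFβ library 1 and with no filter on low counts (edgeR adjusted p up to 0.071). The other was lost without Pam3 library 2 or 3 or Pam3+TGFβ library 1 or 2 and with upper-quartile scaling (up to 0.144).

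Of the remaining lumenal genes, Lipa (lysosomal acid lipase) fell by 0.79 and 0.46 and Smpd1 (acid sphingomyelinase) by 0.87 and 0.55. Grn, the gene of progranulin, fell by 0.65 and 0.46, and Tpp1 (tripeptidyl peptidase) by 0.58 and 0.36. Npc2, the lumenal cholesterol carrier, fell by 0.25 in the absence of Pam3 and was at -0.10 in its presence (edgeR adjusted p = 0.134).

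**Figure D3:**
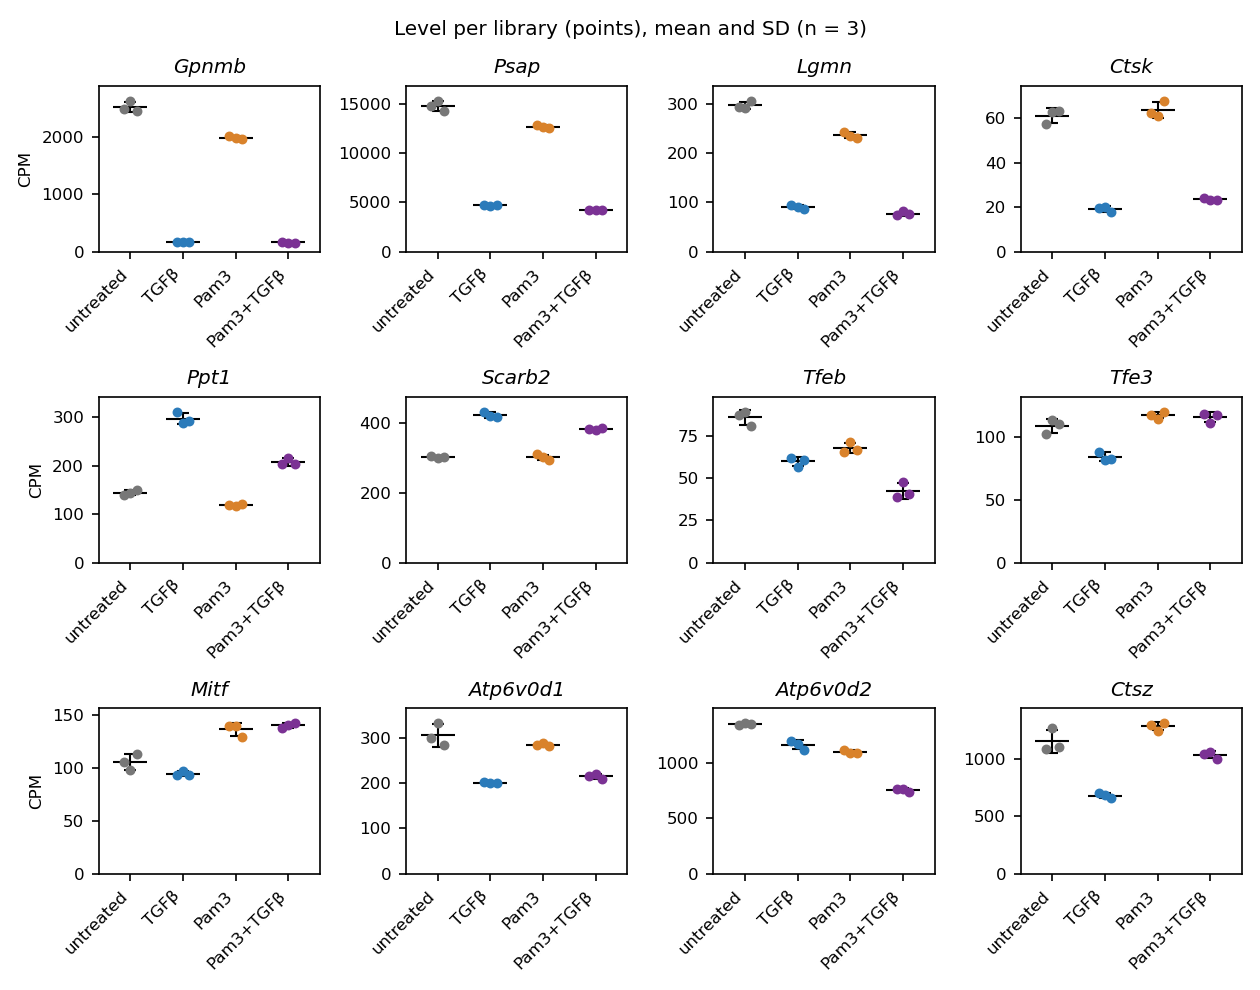
CPM in each library (points) with mean and SD (bars, n = 3) for 12 members in the 4 groups; each panel's vertical axis starts at 0. Gpnmb, Psap, Lgmn and Ctsk are low in both groups with TGFβ, Ppt1 and Scarb2 are high there, and Mitf is higher in both groups with Pam3.

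All 8 V-ATPase subunit genes fell with TGFβ, both in the absence and in the presence of Pam3, with medians of -0.55 and -0.40. Atp6v1b2, the B2 subunit of the catalytic V1 sector, fell most, by 1.06 and 1.04 on the log2 scale. The V1 genes Atp6v1a (catalytic A subunit), Atp6v1c1, Atp6v1d and Atp6v1h fell by 0.73, 0.48, 0.49 and 0.65 in the absence of Pam3, and by 0.47, 0.33, 0.20 and 0.40 in its presence. Atp6ap1, which encodes an accessory subunit needed for assembly, fell by 0.27 and 0.16.

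Atp6v0d1 and Atp6v0d2 encode alternative d subunits of the membrane sector V0, d1 found in most tissues and d2 in osteoclasts, kidney and some macrophages. Atp6v0d1 (chr8:106251086-106292747, minus strand) was at 300.0, 333 and 283 CPM in untreated and 201, 199 and 199.6 in TGFβ libraries. It was at 285, 288 and 282 CPM with Pam3 and 215, 219.8 and 209 with both. Its libraries with TGFβ lay below those without, and Pam3 and untreated libraries overlapped. Atp6v0d2 (chr4:19876838-19922614, minus strand) was at 1345, 1359 and 1351 CPM in untreated and 1200, 1170 and 1120 in TGFβ libraries. It was at 1116, 1090 and 1087 CPM with Pam3 and 767, 761 and 735 with both. Here both single treatments lay below the untreated libraries, and the libraries with both agents were lowest by a wide gap.

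The d1 gene fell by 0.61 (SE 0.046) and 0.41 (SE 0.046) with TGFβ, the d2 gene by 0.22 (SE 0.049) and 0.54 (SE 0.049), the first of each pair in the absence of Pam3. Per kilobase of merged exons, the level of Atp6v0d2 was 7.42 ± 0.572 times that of Atp6v0d1 in untreated, 9.70 ± 0.302 in TGFβ, 6.43 ± 0.107 in Pam3 and 5.86 ± 0.0813 times in Pam3+TGFβ libraries (SD, n = 3). The d2 gene was thus the more abundant of the pair in each of the 12 libraries.

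The MiT/TFE genes, the known transcriptional regulators of the set, did not move as one. All 3 fell with TGFβ in the absence of Pam3, and in its presence 1 fell and 2 were not called. Tfeb (chr17:48047837-48103348, plus strand) was at 87.4, 88.9 and 80.9 CPM in untreated and 61.9, 56.6 and 60.9 in TGFβ libraries. It was at 65.3, 71.1 and 66.4 CPM with Pam3 and 39.0, 47.7 and 40.6 with both. Each agent went with a lower level, and the libraries with both were lowest with no overlap. Tfeb fell with TGFβ by 0.52 (SE 0.068, edgeR adjusted p = 4.48e-07) and 0.67 (SE 0.069), and with Pam3 by 0.34 (SE 0.068, edgeR adjusted p = 0.000577) and 0.49 (SE 0.069).

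Tfe3 (chrX:7628761-7641444, plus strand) was at 103, 114 and 111 CPM in untreated and 88.4, 81.6 and 82.8 in TGFβ libraries. With Pam3 it was 118, 115 and 120.0 CPM, and with both 119, 112 and 117. Only the TGFβ libraries stood low, and the groups with Pam3 overlapped each other. Tfe3 fell with TGFβ by 0.37 (SE 0.052, edgeR adjusted p = 1.51e-06), while beside Pam3 its TGFβ effect was -0.02 (SE 0.052, edgeR adjusted p = 0.785). Its Pam3 response was 0.11 (edgeR adjusted p = 0.169) in the absence and 0.46 (edgeR adjusted p = 7.84e-08) in the presence of TGFβ.

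Mitf (chr6:97783950-97998323, plus strand) was at 106, 98.3 and 114 CPM in untreated and 93.2, 97.8 and 93.6 in TGFβ libraries. Pam3 libraries held 140.2, 140.2 and 129.8 CPM and Pam3+TGFβ libraries 138, 141 and 143. The 6 libraries with Pam3 were above the 6 without it. Mitf rose with Pam3 by 0.37 (SE 0.053, edgeR adjusted p = 1.09e-05) and, beside TGFβ, by 0.57 (SE 0.053, edgeR adjusted p = 2.52e-09). Its fall of 0.16 with TGFβ (edgeR adjusted p = 0.0149) was lost without untreated library 1 or 3 or TGFβ library 1 or 3 and with the compared libraries only (up to 0.112), and beside Pam3 the effect was 0.04. Per kilobase, Mitf stood at 0.840 ± 0.103 times Tfeb in untreated, 1.08 ± 0.0813 in TGFβ, 1.37 ± 0.0720 in Pam3 and 2.26 ± 0.226 times in Pam3+TGFβ libraries (SD, n = 3). The size of these ratios depends on the merged exon lengths used, 10145 bases for Mitf and 6871 for Tfeb, which the SD does not cover.

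The second question was how members responded to Pam3. In the absence of TGFβ, 17 of 47 members fell and 1 rose, against 8.66% lower, 9.62% higher and 18.3% called of all genes (12.5% lower among the 7555 genes at the members' level). The changes were small: the median was -0.09 beside 0.00 for all genes, the range ran from -0.35 for Ctsf to 0.37 for Mitf, and the groups did not overlap for 26 members (31.4% of all genes). Ctsf, Gpnmb, Tfeb and Lgmn fell by 0.35, 0.34, 0.34 and 0.33, Atp6v0d2 by 0.30, Ppt1 by 0.28 and Psap by 0.22. The other 10 that fell were Smpd1, Mcoln1, Naglu, Atp6v1d, Man2b1, Hexa, Grn, Ctsa, Tpp1 and Npc1, by 0.12 to 0.24; leaving out a library ended the call for Smpd1, Naglu, Atp6v1d, Grn, Ctsa, Tpp1 and Npc1, with edgeR adjusted p up to 0.128. Grn, Ctsa, Tpp1 and Npc1 also lost their call with no filter on low counts (edgeR adjusted p 0.0615 to 0.0939) and with the compared libraries only (0.0726 to 0.0984), and Npc1 with limma on the normalized values (0.0718); the number of members lower was 14 with no filter and 12 with the compared libraries only. By role the counts were 3 of 11 proteases, 3 of 9 membrane proteins, 3 of 8 glycan hydrolases, 5 of 8 lipid and other lumenal genes, 1 of 3 MiT/TFE genes and 2 of 8 V-ATPase genes lower. The Ctsf call was lost without untreated library 1 or 2, any TGFβ library, Pam3 library 2 or 3 or Pam3+TGFβ library 1 (edgeR adjusted p up to 0.211), with the compared libraries only (0.0629) and with the replicate number as a block (0.0537). Without Pam3 library 1, 2 or 3 the number of members lower was 11, 11 and 10, and the number higher was 4 without untreated library 2.

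In the presence of TGFβ the Pam3 response was more even, with 14 members higher and 11 lower, beside 20.4% higher, 18.1% lower and 38.5% called of all genes. Among the 7555 genes at the members' level the shares were near those of the members: 29.8% higher, 21.5% lower and 51.3% called, against 29.8%, 23.4% and 53.2% of members. The median was 0.04, against -0.02 for all genes and 0.03 at that level, and the groups did not overlap for 35 members (50.4% of all genes). With upper-quartile scaling in place of TMM, 10 members rose and 17 fell, and over all genes 2477 rose and 3489 fell in place of 3008 and 2670. The members with the largest rises were Ctsz (0.61, SE 0.058), Mitf (0.57) and Tfe3 (0.46), followed by Ctsb (0.43, SE 0.053), Atp6v1h (0.39) and Ctsc (0.34). Those with the largest falls were Atp6v0d2 (-0.62, SE 0.049), Ppt1 (-0.52, SE 0.045), Tfeb (-0.49) and Ctsf (-0.48, SE 0.12). Ctsk, Neu1, Lipa, Atp6v1a, Lamp1, Lamp2, Npc2 and Atp6v1c1 rose by 0.14 to 0.32, and Lgmn, Man2b1, Ctsh, Naglu, Psap, Mcoln1 and Scarb2 fell by 0.14 to 0.23. Of these, Lamp1, Lamp2, Npc2, Atp6v1c1, Naglu and Mcoln1 lost their call without at least 1 library, with edgeR adjusted p up to 0.286. With upper-quartile scaling Lamp1, Lamp2, Npc2 and Atp6v1c1 lost it too (0.0688 to 0.266), and with no filter on low counts Mcoln1 (0.137) and Psap (0.0533). None of the 47 members changed by 1 or more on the log2 scale with Pam3 in either setting. The shares of all genes called at that size were 1.95% in the absence and 7.51% in the presence of TGFβ. Among the 7555 genes at the members' level they were 1.1% and 5.2%.

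**Figure D4:**
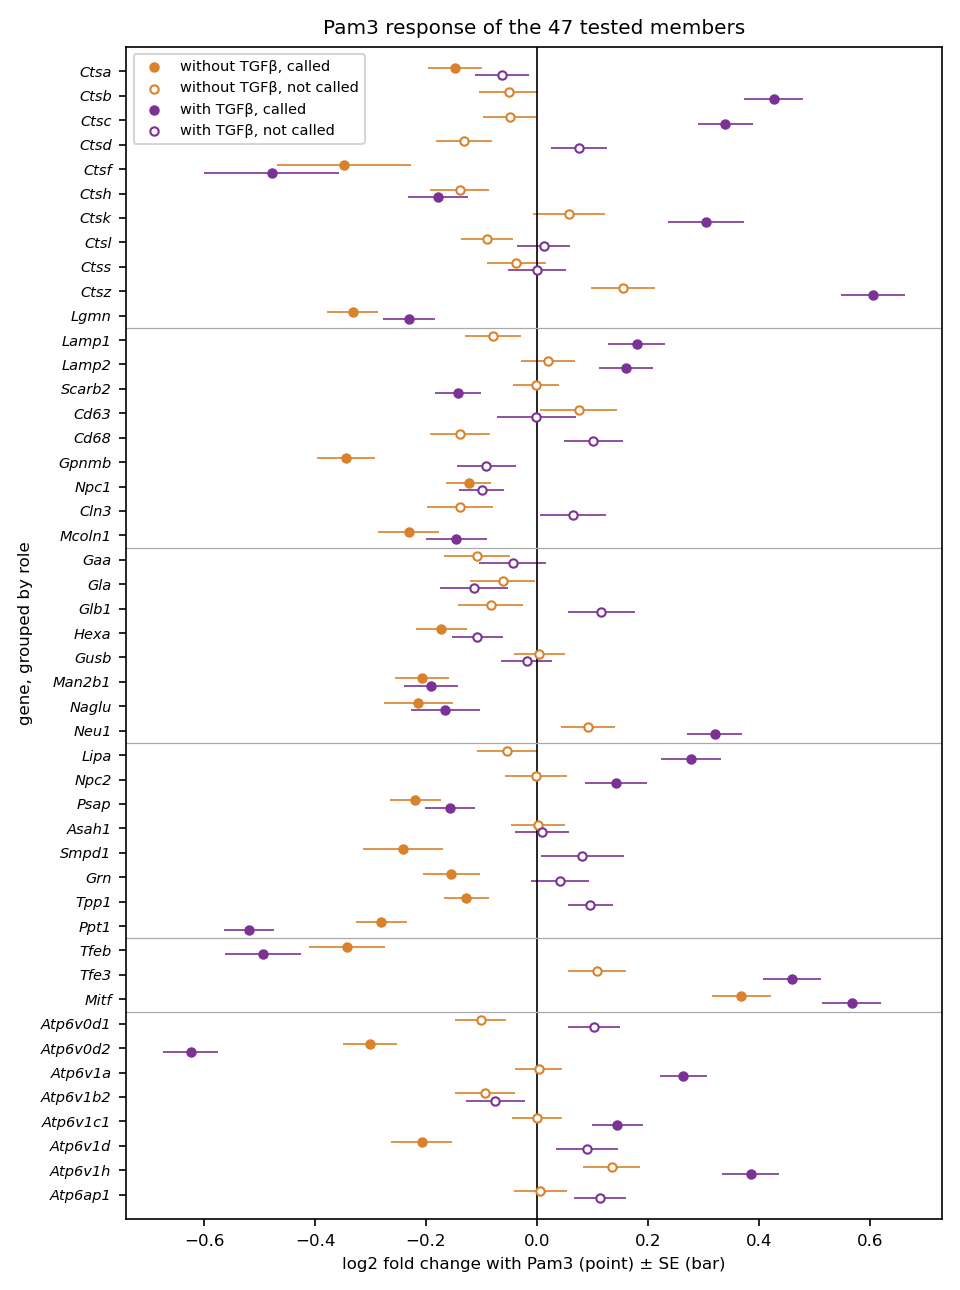
Log2 fold change (points) and SE (bars) of the 47 tested members with Pam3, in the absence (orange) and presence (purple) of TGFβ, grouped by role; filled points passed an adjusted p of 0.05. Purple points lie right of orange ones for most proteases and V-ATPase genes, while Atp6v0d2, Ppt1 and Tfeb lie further left, at -0.62, -0.52 and -0.49.

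Whether TGFβ changed the Pam3 response was tested directly, as the response in its presence minus that in its absence (the interaction). This difference was positive and called for 16 members and negative and called for 2, beside 10.3% and 5.67% of all genes (15.9% in either direction, and 15.8% positive among the 7555 genes at the members' level). The median was 0.14 against 0.00 for all genes. The widest positive differences were those of Ctsb (0.48, SE 0.075, edgeR adjusted p = 4.09e-05), Ctsz (0.45, SE 0.081, edgeR adjusted p = 0.000212), Ctsc (0.39, SE 0.070) and Tfe3 (0.35, SE 0.074). The 2 negative ones were Atp6v0d2 (-0.32, SE 0.069, edgeR adjusted p = 0.00138) and Ppt1 (-0.24, SE 0.064, edgeR adjusted p = 0.0102). The d subunits of the proton pump thus differed in sign, since Atp6v0d1 was at 0.20 (SE 0.066, edgeR adjusted p = 0.0331), a call lost without any 1 of 11 libraries (all but untreated library 3) and with upper-quartile scaling (adjusted p up to 0.108 over these). Macrophage markers moved likewise, all 7 with a positive difference that was called, and their part in this result was not tested.

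The count of positive differences depended on libraries and on scaling more than the TGFβ counts did. It was 9, 10 and 8 without TGFβ library 1, 2 and 3, and 8 without Pam3+TGFβ library 1. Upper-quartile scaling left 9 positive and 3 negative among members, and 1255 and 1097 over all genes in place of 1516 and 836. The setting with the compared libraries only was not run for the interaction. Called under every other alternative and each left-out library were 8 members: Ctsb, Ctsc, Ctsz, Lipa, Ppt1, Tfe3, Atp6v0d2 and Atp6v1a. The other 10 were each lost without at least 1 library, with edgeR adjusted p up to 0.139. With upper-quartile scaling Ctsd, Cd68, Gpnmb, Neu1, Smpd1, Atp6v0d1 and Atp6v1h lost their call (0.0548 to 0.138), and with no filter on low counts Ctsd (0.078) and Smpd1 (0.0541).

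Members held several percent of all counts in these cells. Their summed share of the counts was 5.78%, 5.97% and 5.36% in the untreated libraries and 3.35%, 3.47% and 3.19% in the TGFβ libraries. It was 5.20%, 4.90% and 4.73% with Pam3 and 3.23%, 3.23% and 3.19% with both agents. Libraries with TGFβ were all below those without it. Psap and Ctsd held the largest single shares: Psap went from 1.46% ± 0.0866 (SD, n = 3) in untreated to 0.507% ± 0.0139 in TGFβ libraries, and Ctsd from 1.30% ± 0.107 to 0.894% ± 0.0384. Setting both aside, the share of the remaining members was 2.93% ± 0.127 in untreated and 1.94% ± 0.0895 in TGFβ libraries. The share of the glycan hydrolases was 0.218% ± 0.0127 and 0.221% ± 0.00765 in those groups, whose libraries overlapped. Shares are of each library's total without the TMM adjustment, whose factors were 0.9571 to 1.02 in untreated and 1.047 to 1.12 in TGFβ libraries. In the fit with that adjustment, 6 of these 8 genes fell with TGFβ.

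**Figure D5:**
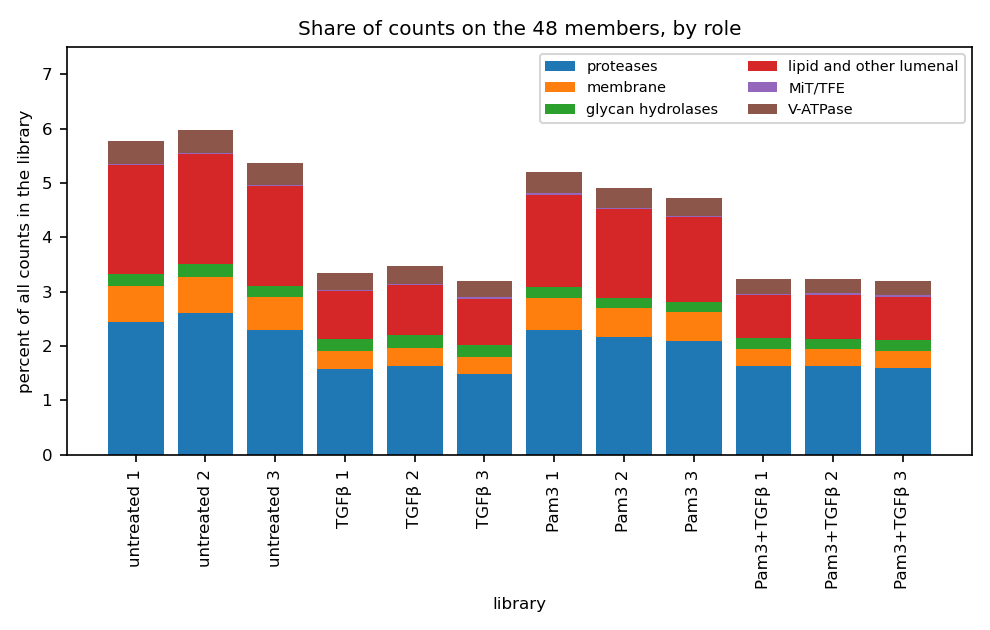
Percent of all counts in each of the 12 libraries (bars from 0) that fell on the 48 members, stacked by role. The 6 libraries with TGFβ reach 3.19% to 3.47%, and the 6 without it 4.73% to 5.97%.

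Levels within the set were compared per kilobase of merged exons. Ctsd (4765 ± 344 CPM per kb, SD, n = 3) and Psap (4629 ± 166) led in untreated libraries and did not differ beyond their spread. Cd68 (627 ± 45.8), Ctss (522 ± 16.1), Atp6v0d2 (496 ± 2.54) and Grn (468 ± 20.0) followed. With TGFβ, Ctsd (3003 ± 76.0) stood above Psap (1475 ± 17.6), Atp6v0d2 (426 ± 14.8) ranked 3, and Gpnmb moved from rank 8 of 48 to rank 28. Ctsk moved from rank 32 to 43, while Ppt1 moved from 33 to 23 and Scarb2 from 25 to 20. Ctse was last in every group.

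A wider list of 104 lysosomal genes that are not in the set was read in the same fit, and 97 of them were tested. With TGFβ, 62 fell and 9 rose in the absence of Pam3 (median -0.27), and 48 fell and 10 rose in its presence (median -0.19). These are 63.9% lower and 9.28% higher, then 49.5% and 10.3%, beside 28.1% and 22.9%, then 23.8% and 21.5%, of all genes (35.6% and 27.7%, then 27.9% and 29.0%, of the 7555 at the members' level). The 11 tested V-ATPase genes of that list included 7 lower and none higher in the absence of Pam3, and 5 lower and 1 higher in its presence. Of 17 tested genes for nutrient sensing at the lysosome, 14 fell and 1 rose in the absence of Pam3, and 8 fell and 1 rose in its presence. The changes of single genes that follow are those in the absence of Pam3. Rragd, a Rag GTPase of the mTORC1 pathway, went from 6.42 ± 0.233 to 0.275 ± 0.224 CPM (log2 -4.55, SE 0.35). Slc11a1, the metal transporter NRAMP1 of phagosomes, fell by 3.23, and Plbd1, a phospholipase B-like protein, by 5.28 from 6.55 ± 0.559 CPM. The channel gene Mcoln2 fell by 1.96 and Mcoln3 by 1.18.

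Genes for enzyme sorting divided. Of 12 tested, 6 fell and 3 rose with TGFβ in the absence of Pam3, and 4 fell and 2 rose in its presence. Igf2r, one receptor for the mannose 6-phosphate tag on lysosomal enzymes, was at 40.3, 35.9 and 40.6 CPM in untreated libraries and held 0, 2 and 0 counts in the TGFβ libraries, at least 496-fold lower against a floor of 3 counts per library. In Pam3 libraries it was at 39.8, 40.0 and 39.3 CPM, and with both agents at 0.233, 0.0268 and 0.316. Every library with TGFβ was near 0, so no size of interaction is given for this gene. Its positive interaction and its rise with Pam3 beside TGFβ were called, however, and both are included in the counts of the wider list below. M6pr, the other such receptor, rose by 0.22 (SE 0.054) and 0.40 (SE 0.054), and Gnptab, an enzyme that makes the tag, by 0.42 (SE 0.051) and 0.62 (SE 0.051); both were named after their values were seen. The hydrolase genes Arsb (arylsulfatase B, 1.04 and 1.20) and Acp5 (tartrate-resistant phosphatase, 0.76 and 1.16) and the membrane gene Cd164 (0.83 and 0.56) rose in both settings.

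Pam3 moved the wider list in both directions, with 9 higher and 29 lower in the absence of TGFβ and 28 higher and 30 lower in its presence. In the absence of TGFβ these are 9.28% and 29.9%, beside 9.62% and 8.66% of all genes and 14.7% and 12.5% of the 7555 at the members' level. In its presence they are 28.9% and 30.9%, beside 20.4% and 18.1% of all genes and 29.8% and 21.5% at that level, so the share that rose was near that of genes at such levels. Without untreated library 2 the number higher in the absence of TGFβ was 17, and without Pam3 library 1 it was 5. Slc11a1 rose by 0.74 and 1.66, Mcoln2 by 0.39 and 1.01, and the acid phosphatase gene Acp2 by 0.41 and 0.75. Pla2g15, a lysosomal phospholipase that acts on surfactant lipid, fell by 0.35 and 0.78, the amino acid transporter gene Slc36a1 by 0.17 and 0.56, and Mcoln3 by 0.64 and 0.41. Atp6v1g2, a V-ATPase subunit at 3.45 ± 0.490 CPM in untreated libraries, fell with Pam3 in the presence of TGFβ only (-0.69, SE 0.18), and its interaction was not called (edgeR adjusted p = 0.138). The interaction was called for 26 of the 97, with 22 positive (22.7%) and 4 negative (4.12%), beside 10.3% and 5.67% of all genes and 15.8% and 7.62% of the 7555 at the members' level; 26.8% were called in either direction, beside 15.9% and 23.4%. The negative ones numbered 8 with upper-quartile scaling and 7 with DESeq2.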

How the data were processed

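RNA-seq libraries of 4 groups of 3 were used as deposited. Per the labels' protocols, the authors used bcl2fastq 2.20.0 and FastQC 0.11.7 on the reads, Bowtie2 2.4.1 for alignment (GRCm39), and featureCounts of Subread 2.0.0 for counts per gene. The authors deposited raw counts and a table of normalized values made with DESeq2 1.36.0 in R 4.2.1; each value of that normalized signal is the deposited count divided by 1 constant per library. Annotation, strand setting and treatment of multimapping reads are not given in the sources used here. Bowtie2 does not split reads over introns, so reads across exon junctions may be missing from the counts.

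Total counts were 34036650 to 44374115 per library. Without molecular identifiers, floors cover counting error only. Chi-square values per degree of freedom between libraries of a group were 9.99 to 219.92, so none was deposited in duplicate.

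Counts were tested with edgeR 4.0.16 (limma 3.58.1, R 4.3.3): filterByExpr with a minimum count of 10, TMM, 1 mean per group over all 12 libraries, robust quasi-likelihood fit, and Benjamini-Hochberg adjustment over 14749 genes at 0.05. An SE is the log2 fold change divided by the square root of the test's F. Levels per kilobase use the length of merged exons in an annotation of GRCm39, which may differ from the one used for counting. Their SD does not cover this choice. Scripts were tested on simulated data. Members and lists were chosen with earlier results of these data known. Per-library values were given for members among the 3 called with the largest change in either direction of any contrast, and for Tfeb, Tfe3, Mitf, Atp6v0d1, Atp6v0d2, Ctsk and Cd68. From the other lysosomal genes, up to 2 called ones per contrast and direction were named, provided that each library of their higher group held 10 counts or more. Alternatives were RLE and upper-quartile scaling, DESeq2 1.42.0, limma on the log2 of the authors' normalized values, no filter, 10 counts in every library, a replicate block, the compared libraries only, and each library left out.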

Additional observations from a re-analysis of the deposited data

Results flagged for a closer look

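For 18 members the interaction test called a difference between the Pam3 responses in the presence and absence of TGFβ. These are 38.3% of the tested members, beside 15.9% of all genes and 23.4% of the 7555 genes at the members' level. Among them, Ctsd, Cd68 and Atp6v0d1 had no called Pam3 response in either setting. On the log2 scale the response in the presence minus that in the absence of TGFβ was 0.48 for Ctsb, 0.39 for Ctsc, 0.21 for Ctsd and 0.45 for Ctsz among the proteases. It was 0.26 for Lamp1, 0.24 for Cd68 and 0.25 for Gpnmb among the membrane proteins, and 0.23 for the sialidase gene Neu1. Among lipid and other lumenal genes it was 0.33 for Lipa, 0.32 for Smpd1, 0.22 for Tpp1 and -0.24 for Ppt1. It was 0.35 for Tfe3, and among V-ATPase genes 0.20 for Atp6v0d1, -0.32 for Atp6v0d2, 0.26 for Atp6v1a, 0.30 for Atp6v1d and 0.25 for Atp6v1h. The 18 hold 16 positive and 2 negative differences. In some alternative 10 of the 18 lost their call, namely Ctsd, Lamp1, Cd68, Gpnmb, Neu1, Smpd1, Tpp1, Atp6v0d1, Atp6v1d and Atp6v1h. The other 8 were called in each alternative run.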

How the results depend on the processing

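No alternative reversed a called direction. The TGFβ counts moved little: 39 to 40 members lower and 2 to 4 higher in the absence of Pam3, and 34 to 36 lower and 2 to 4 higher in its presence. In the absence of TGFβ, members higher with Pam3 numbered 2 with 10 counts in every library, 2 with limma on the normalized values and 3 with DESeq2, and 1 to 4 with a library left out. Members lower then ranged from 10 to 19, and other lysosomal genes higher from 5 to 17. Over the other alternatives, members lower ran from 12 with the compared libraries only to 20 with upper-quartile scaling. In the presence of TGFβ, 17 members fell with Pam3 under upper-quartile scaling. The interaction was positive for 9 members under upper-quartile scaling and for 8 to 18 with a library left out, and negative for 8 other lysosomal genes with upper-quartile scaling and 7 with DESeq2. Without the 20 most abundant genes in the total, members held 6.77%, 3.92%, 5.97% and 3.69% of counts in untreated, TGFβ, Pam3 and Pam3+TGFβ libraries. The cause of these shifts was not tested, except that leaving out a library or genes leaves fewer of them.

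Groups share replicate numbers, and correlations of same-numbered libraries ran from -0.286 to 0.428. They were of either sign for numbers 1 and 2, while for number 3 all were positive, from 0.07 to 0.428. The main fit did not take the numbers as pairs, and a block on the number was run as an alternative. With the number as a block, 1 member rose and 17 fell with Pam3, 14 and 11 beside TGFβ, 3 and 40 with TGFβ, 3 and 35 beside Pam3, and 16 and 2 in the interaction. Although the count of 17 did not move, Ctsf lost its call under the block (edgeR adjusted p = 0.0537). Depth limits Ctse and the low end of Igf2r, Rragd and Plbd1.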
